A study of Mus musculus with 15 samples.

Results

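The mitosis genes described here are 54 genes that build and run cell division: the mitotic kinases and cyclins, the spindle checkpoint, kinetochores, motors of the spindle, cytokinesis proteins, condensins and the transcription factors Foxm1 and Mybl2. They were taken by symbol from a table of 23284 entries with FPKM values (fragments scaled to transcript length and to the library's total). All 54 were in the table, and all 54 reached a population mean of 1 FPKM in 1 or more of the 5 populations, the filter that left 11242 genes for testing. In 25 members the naive mean was under 1 FPKM, so these passed only through the cultured cells.

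RNA-seq was done on CD8 T cells of OT-I mice, whose transgenic T cell receptor recognises the ovalbumin peptide SIINFEKL on H-2Kb. Except for the naive cells, all had met dendritic cells raised from bone marrow and loaded with SIINFEKL, and all of these were then kept in culture for 14 days. IL-2 was the growth factor of one culture, and its CD44+CD62L- cells were sorted. The other culture received a cocktail in place of IL-2: 2-deoxyglucose (a glucose analogue that blocks glycolysis), TWS119 (an inhibitor of glycogen synthase kinase 3), IL-21 and IL-7. Its CD44+CD62L-, CD44+CD62L+ and CD44loCD62L+ cells were sorted. CD44 is an adhesion receptor raised on activated T cells, and CD62L lets naive and central memory T cells enter lymph nodes. Naive OT-I cells at day 0 had no culture and no peptide, and their gate is CD44-CD62L+ in the design text but CD44loCD62L+ in the labels. Each population gave 1 RNA and 3 libraries, which are technical replicates, so every p-value measures the spread between libraries and not that between mice or cultures. Age and sex of the mice were not given in the sources used here.

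Mitosis starts when cyclin B bound to CDK1 is freed from inhibitory phosphorylation by CDC25 phosphatases. PLK1 and the Aurora kinases then act on centrosomes, kinetochores and the spindle, and the checkpoint proteins hold back the anaphase-promoting complex (APC/C) until all chromosomes are attached. CDC20 with the APC/C then has securin and cyclin B degraded, separase cuts cohesin, and the central spindle and the contractile ring divide the cell. Most of these genes are transcribed late in the cell cycle. Their promoters are known for the cell cycle genes homology region (CHR), which binds the MuvB complex, and for CCAAT boxes, which bind NF-Y. The CHR was searched for here by the letters TTTGAA or TTCGAA. In resting cells MuvB joins an RB-family pocket protein and E2F4 in the repressive DREAM complex, and in dividing cells it joins B-MYB (the Mybl2 product) and then FOXM1.

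The promoter letters are shown because most members with a promoter at hand have them and they played no part in choosing the members. RefSeq promoters of GRCm38.p6, from 250 bases before to 50 bases after a start site, were at hand for 45 of the 54 members, with 48 promoters. TTTGAA or TTCGAA on either strand was in 38 of these 48 promoters (79.2%), against 6316 of all 32851 promoters of the same length (19.2%) and 6 of 37 promoters of DNA replication genes (16.2%). Bub3, Ect2 and Prc1 entered with overlapping promoters, which share letters. By gene, the letters were in 35 of 45 members and in 5854 of all 27025 genes. At least 2 CCAAT boxes on either strand were in 52.1% of the members' promoters and in 11.7% of all promoters. Both features together were in 24 of the members' 48 promoters and in 2.31% of all promoters. A match of letters is a description and not a binding site. Below, 6 promoters are written 5′ to 3′ on the gene's own strand, with the CHR letters and the CCAAT boxes, read on either strand, in capitals. They belong to the kinase genes Plk1 and Cdk1, the cyclin gene Ccnb2, the APC/C activator gene Cdc20 and the topoisomerase gene Top2a, all with CHR letters and, except for Plk1 with 1, at least 2 CCAAT boxes. Ccnb1, encoding cyclin B1, is shown as the contrast, with 2 CCAAT boxes and neither TTTGAA nor TTCGAA. Other forms of the CHR were not searched for.
Plk1 (chr7:122159185-122159484, plus strand): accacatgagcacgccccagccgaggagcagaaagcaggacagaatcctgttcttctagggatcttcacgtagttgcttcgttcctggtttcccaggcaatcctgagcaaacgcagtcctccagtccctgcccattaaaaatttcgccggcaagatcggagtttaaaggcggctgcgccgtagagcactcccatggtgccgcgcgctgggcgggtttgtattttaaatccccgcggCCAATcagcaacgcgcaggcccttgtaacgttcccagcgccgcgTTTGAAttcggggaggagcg
Cdk1 (chr10:69352863-69353162, minus strand): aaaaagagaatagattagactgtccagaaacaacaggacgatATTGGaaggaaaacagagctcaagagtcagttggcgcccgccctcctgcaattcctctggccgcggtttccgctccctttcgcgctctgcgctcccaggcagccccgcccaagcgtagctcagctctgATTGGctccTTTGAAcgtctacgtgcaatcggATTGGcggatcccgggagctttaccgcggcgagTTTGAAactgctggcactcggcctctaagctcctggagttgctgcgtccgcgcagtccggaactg
Ccnb2 (chr9:70421505-70421804, minus strand): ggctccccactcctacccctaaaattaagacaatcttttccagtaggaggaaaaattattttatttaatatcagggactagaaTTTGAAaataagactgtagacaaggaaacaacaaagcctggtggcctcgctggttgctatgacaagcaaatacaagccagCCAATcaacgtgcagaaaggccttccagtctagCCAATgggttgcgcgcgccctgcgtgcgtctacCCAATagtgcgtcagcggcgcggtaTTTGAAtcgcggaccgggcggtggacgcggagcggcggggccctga
Cdc20 (chr4:118437294-118437593, minus strand): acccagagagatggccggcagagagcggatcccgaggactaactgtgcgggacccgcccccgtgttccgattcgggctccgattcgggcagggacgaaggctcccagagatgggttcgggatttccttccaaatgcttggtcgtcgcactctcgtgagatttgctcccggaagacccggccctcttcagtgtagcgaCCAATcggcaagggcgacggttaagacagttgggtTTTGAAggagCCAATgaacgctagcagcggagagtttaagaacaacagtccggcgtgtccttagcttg
Top2a (chr11:99024140-99024439, minus strand): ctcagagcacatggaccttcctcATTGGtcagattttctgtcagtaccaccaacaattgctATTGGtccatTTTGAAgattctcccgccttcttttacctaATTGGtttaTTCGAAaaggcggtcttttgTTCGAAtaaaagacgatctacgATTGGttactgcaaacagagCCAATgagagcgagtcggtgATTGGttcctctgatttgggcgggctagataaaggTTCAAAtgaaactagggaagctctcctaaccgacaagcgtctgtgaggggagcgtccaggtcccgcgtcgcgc
Ccnb1 (chr13:100786437-100786736, minus strand): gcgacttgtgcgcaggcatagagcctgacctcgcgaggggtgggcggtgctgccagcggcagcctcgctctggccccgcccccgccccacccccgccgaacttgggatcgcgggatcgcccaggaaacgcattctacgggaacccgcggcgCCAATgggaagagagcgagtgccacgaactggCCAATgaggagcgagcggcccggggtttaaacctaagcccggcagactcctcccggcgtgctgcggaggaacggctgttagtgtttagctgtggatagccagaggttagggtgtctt

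In Cdk1 the TTTGAA matches began 71 and 15 bases before the start site, in Cdc20 18 bases before it, and in Plk1 30 bases after it. Top2a had 6 CCAAT boxes, all before the start site, the most of the 6 promoters shown.

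Across the 5 populations most members followed 1 order, lowest in naive cells, then cocktail CD44loCD62L+, cocktail CD44+CD62L- and cocktail CD44+CD62L+ cells. By their means 51 of the 54 members held this order, and Bub3, Pttg1 and Smc4 did not. The median member stood at 1.26 FPKM in naive, 18.4 in CD44loCD62L+, 46.3 in cocktail CD44+CD62L-, 59.7 in CD44+CD62L+ and 56.0 in IL-2 cells. The highest of the 5 means was in cocktail CD44+CD62L+ cells for 44 members, in IL-2 cells for 9 (Ccnb1, Bub1, Bub3, Pttg1, Birc5, Aurka, Kpna2, Ncapg and Mybl2) and in CD44loCD62L+ cells for Smc4. These medians and orders describe the members and were not tested.

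**Figure D1:**
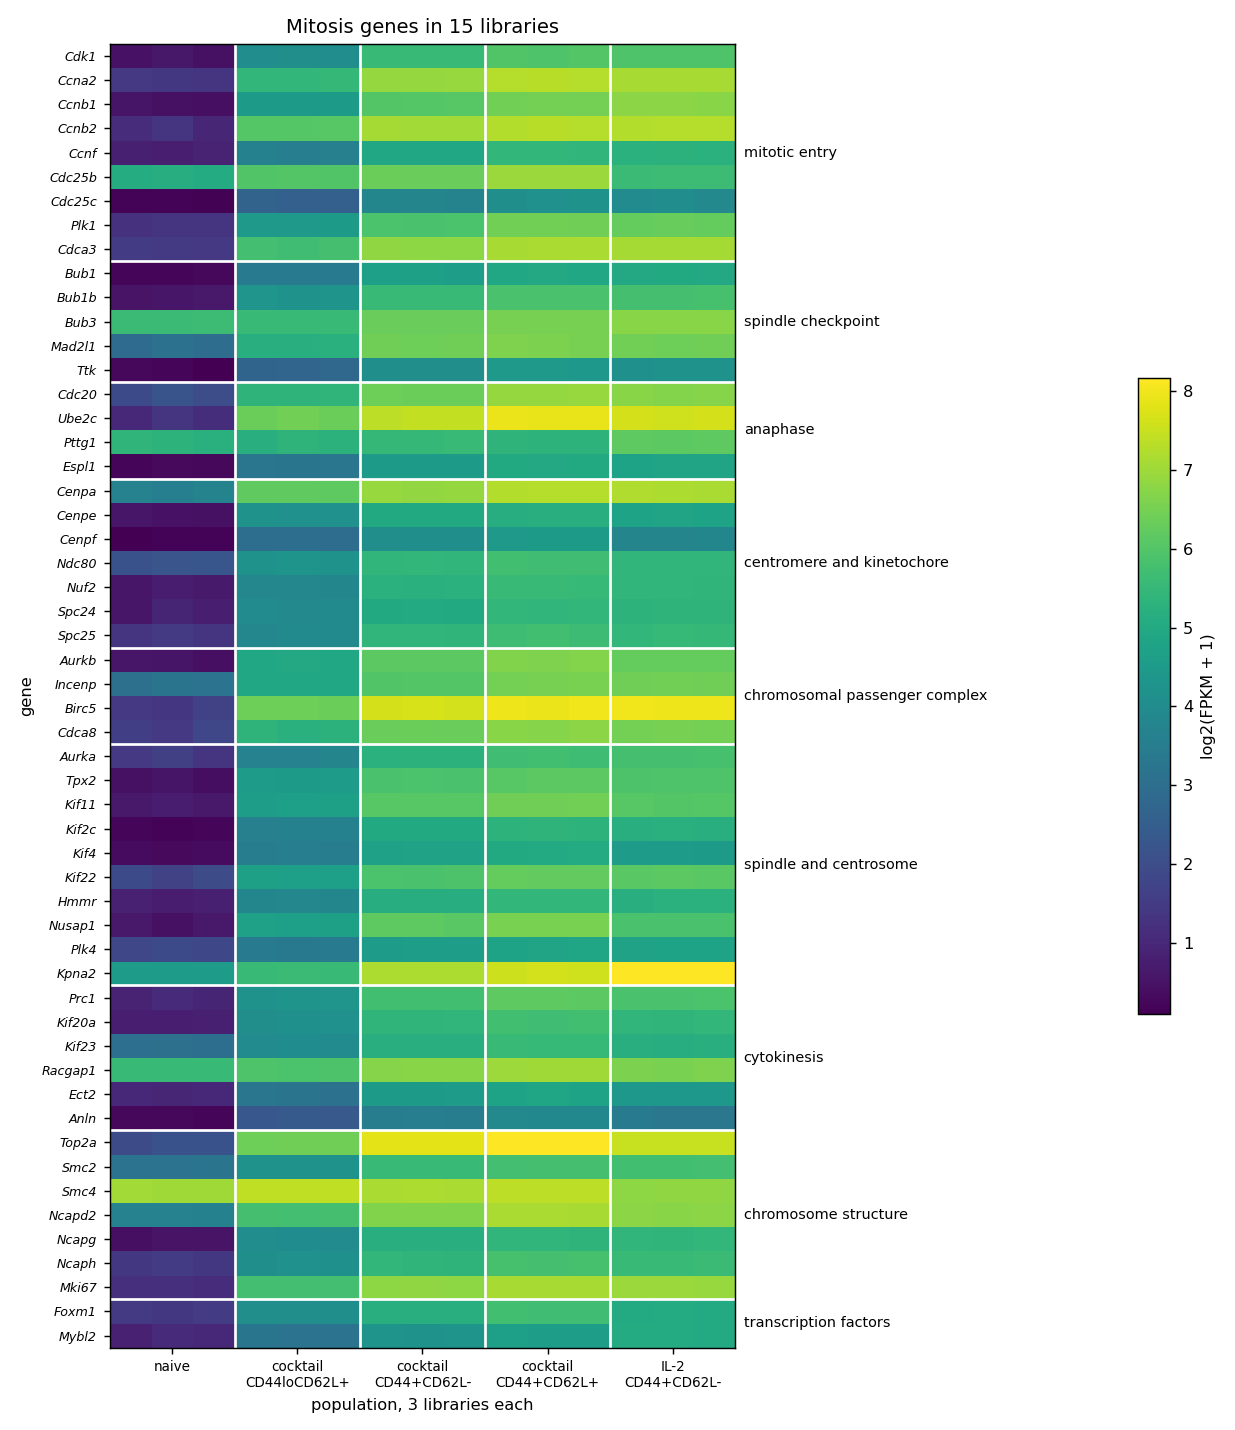
Level of each of the 54 mitosis genes, as log2(FPKM + 1) by colour, in each of the 15 libraries, with genes as rows grouped by role and the 3 libraries of each population side by side. Most rows are dark in naive cells, intermediate in cocktail CD44loCD62L+ cells and bright in the other 3 populations, while Smc4, Bub3, Racgap1, Pttg1 and Cdc25b are bright in naive cells too.

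Summed over the 54 members, FPKM ran from 416.9 to 419.6 in the naive libraries, from 1667 to 1675 in CD44loCD62L+, from 3517 to 3533 in cocktail CD44+CD62L-, from 4009 to 4020 in IL-2 and from 4518 to 4542 in cocktail CD44+CD62L+ libraries. No 2 populations overlapped in this sum. The median coefficient of variation between the 3 libraries was 5.58% in naive cells, over the 29 members at 1 FPKM or more, and 1.24% to 1.86% over all 54 members in the cultured populations. In bulk RNA a lower value may mean fewer dividing cells or less transcript per cell, and these cannot be told apart.

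Read depth behind the FPKM values is unknown. Between 10006 and 10473 genes per library were at 1 FPKM or more. The CD8 T cell markers Cd3e, Cd3g, Cd8a and Cd8b1 summed to 1361 to 2482 FPKM. Of 12 dendritic cell and macrophage markers 11 were in the table, none at 0 throughout, and 7 passed the filter. Their sum was 86.7 to 87.5 FPKM in naive, 30.6 to 32.6 in IL-2, 67.4 to 70.4 in cocktail CD44+CD62L-, 66.9 to 68.6 in CD44+CD62L+ and 50.7 to 52.1 in CD44loCD62L+ libraries. The sum does not stand for each marker. Against naive cells the log2 fold changes of the 7 ran from -5.23 to 4.51 in IL-2 cells, with 2 positive and 5 negative. The 5 B cell markers summed to 39.0 to 40.4 FPKM in naive and 2.05 to 6.75 in cultured libraries. The part of these other cells in the results was not tested.

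Cultured cells were compared with naive cells to measure the members before and after stimulation and culture. Nearly every mitosis gene rose. A gene counts as risen or fallen at a limma adjusted p under 0.05 (Benjamini-Hochberg over the 11242 genes of the comparison) if its log2 fold change was also 1 or more in size. Fold changes are on the log2(FPKM + 1) scale, where changes of low genes come out too small. In IL-2 cells 51 members rose and 0 fell, where 17.6% of all genes tested rose and 13.7% fell, and the median log2 fold change was 4.39. In cocktail CD44+CD62L- cells 51 rose and 0 fell, where 13.9% of all genes rose and 8.59% fell (median 4.24), and in cocktail CD44+CD62L+ cells 51 rose and 0 fell, where 14.4% rose and 8.44% fell (median 4.65). In CD44loCD62L+ cells 48 rose and 0 fell, where 11.6% of all genes rose and 6.11% fell, with a median of 3.00. These comparisons share the naive libraries, so their counts are not independent of each other. The 25 members with a naive mean under 1 FPKM passed the filter only through cultured cells. For these, a higher value in at least 1 cultured population was fixed by the filter. All 5 B cell markers fell in each cultured population against naive cells, and the part of such cells was not tested.

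A total of 6 members were short of the call in at least 1 of these comparisons. Smc4 and Pttg1 were not called in any of the 4 comparisons with naive cells. Cdc25b was also not called in IL-2 cells, Bub3 in the 3 cocktail populations, and Cdc25b, Kif23 and Racgap1 in CD44loCD62L+ cells. The 6 members with a naive mean of at least 20 FPKM were Smc4 at 129.9 ± 0.886, Bub3 at 47.8 ± 0.541, Racgap1 at 45.7 ± 0.259, Pttg1 at 39.0 ± 2.12, Cdc25b at 33.4 ± 0.582 and Kpna2 at 22.3 ± 0.136 FPKM (SD, n = 3). FPKM values with ± are means and SD over 3 libraries throughout. In IL-2 cells the fold of Bub3 against naive cells dropped under the minimum with quantile normalization, at 0.89, as did that of Racgap1, at 0.80. In CD44loCD62L+ cells Kpna2 had a log2 fold change of 1.01, and without replicate 2 of the CD44loCD62L+ libraries one of 0.99, which left 47 members risen.

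Within the cocktail culture the CD44 gate sets CD44loCD62L+ against CD44+CD62L+ cells. Mitosis genes were lower in the CD44lo cells almost throughout: 49 members fell and 0 rose, where 2.26% of all 11242 genes tested fell and 0.418% rose. With no fold minimum 52 members were lower and 1 higher, against 36.9% and 36.5% of all genes. The median log2 fold change was -1.57, with a range from -2.04 (Kpna2) to 0.03 (Smc4), while the median of all genes was 0. Relative to the CD44+CD62L+ mean, the CD44lo mean was 23.7% in Aurka, the lowest of the members, and the median member was at 32.5%. Of the 5 members not called, Cdc25b, Bub3 and Cenpe had log2 fold changes of -0.96 each and lay just short of the minimum fold. Pttg1 (-0.05, limma adjusted p = 0.258) and Smc4 (0.03, limma adjusted p = 0.0239) stood apart from the rest, and the sign of Pttg1 turned with quantile normalization. The dendritic cell and macrophage markers also summed lower in the CD44lo cells, but not as a list: of the 7 tested 4 had a positive and 3 a negative log2 fold change, with a median of 0.02, and 1 fell (Batf3, 3.90 ± 0.368 against 13.5 ± 0.924 FPKM). The CD44lo cells were still well above naive cells, by a median FPKM ratio of 19.6 over the members.

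The CD44+CD62L+ and CD44+CD62L- cells of the cocktail, which differ in the CD62L gate, differed less than those of the CD44 gate, which shares the CD44+CD62L+ libraries. No member was called, where 0.0356% of all genes rose and 0.0801% fell. With no fold minimum, 53 members were higher in the CD62L+ cells and 1, Pttg1, was lower at a limma adjusted p under 0.05, against 24.1% and 24.3% of all genes tested. The median log2 fold change was 0.34, which in FPKM was a median ratio of 1.28, and the largest was 0.63 in Cdc25b. In 53 members every CD62L+ library was above every CD62L- library, where 27.7% of all genes tested had no overlap in that direction. Pttg1 had the reverse order, and 28% of all genes did. None of the 7 dendritic cell and macrophage markers tested was called in this comparison, and their median was -0.23.

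Between the cultures, the median member had a different sign in each gate, and both comparisons share the IL-2 libraries. Cocktail CD44+CD62L- cells, which shared the gate of the IL-2 cells, had 0 members called in either direction, where 4.64% of all genes rose and 3.2% fell. With no fold minimum 11 members were higher and 36 lower in the cocktail cells, against 40.6% and 43.7% of all genes, with a median log2 fold change of -0.17 and a median FPKM ratio of 0.884. With quantile normalization these counts were 17 higher and 25 lower and the median was -0.05, so that the sign of the median was kept but most of its size was not. The 14 members with a positive fold change were Anln, Cdc25b, Cenpe, Cenpf, Ect2, Foxm1, Kif11, Kif23, Kif4, Ndc80, Nusap1, Racgap1, Smc4 and Top2a. With quantile normalization 21 were positive, the further ones being Cdca8, Kif20a, Mad2l1, Mki67, Ncapd2, Spc25 and Tpx2, and with median-ratio scaling 15, the further one being Mad2l1. Among the lower members Kpna2 had the lowest value (-0.98), followed by Mybl2 (-0.79) and Ccnb1 (-0.72).

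Cocktail CD44+CD62L+ cells differed from IL-2 cells in both the culture and the gate. Here 1 member, Cdc25b, rose and 0 fell, where 4.67% of all genes rose and 3.49% fell. With no fold minimum 38 members were higher and 5 lower (Ccnb1, Bub3, Pttg1, Kpna2 and Mybl2), against 41.8% and 42.3% of all genes tested, and the median log2 fold change was 0.19. With quantile normalization the counts were 47 higher and 5 lower, and the fold changes of Birc5, Bub1 and Ncapg turned from negative to positive. Markers of other cells moved in both comparisons with IL-2 cells. Of the 7 dendritic cell and macrophage markers tested, 3 rose in the cocktail cells, while 3 had negative log2 fold changes, down to -0.63 in CD44+CD62L- and -0.84 in CD44+CD62L+ cells. Cd74 stood at 0.559 ± 0.188 FPKM in IL-2, 12.5 ± 0.104 in cocktail CD44+CD62L- and 17.2 ± 0.737 in cocktail CD44+CD62L+ cells, and the other 2 that rose were Lyz2 and H2-Ab1. Of the 3 erythroid, platelet and neutrophil markers tested, 3 rose in CD44+CD62L- and 2 in CD44+CD62L+ cells. The 1 NK cell marker tested fell in both (-1.12 and -1.09), 1 of 5 B cell markers fell in both, and of 3 CD4 T cell markers 1 rose and 1 fell in CD44+CD62L- and 0 rose and 1 fell in CD44+CD62L+ cells. The part of those cells in the small differences of the mitosis genes was not tested.

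**Figure D2:**
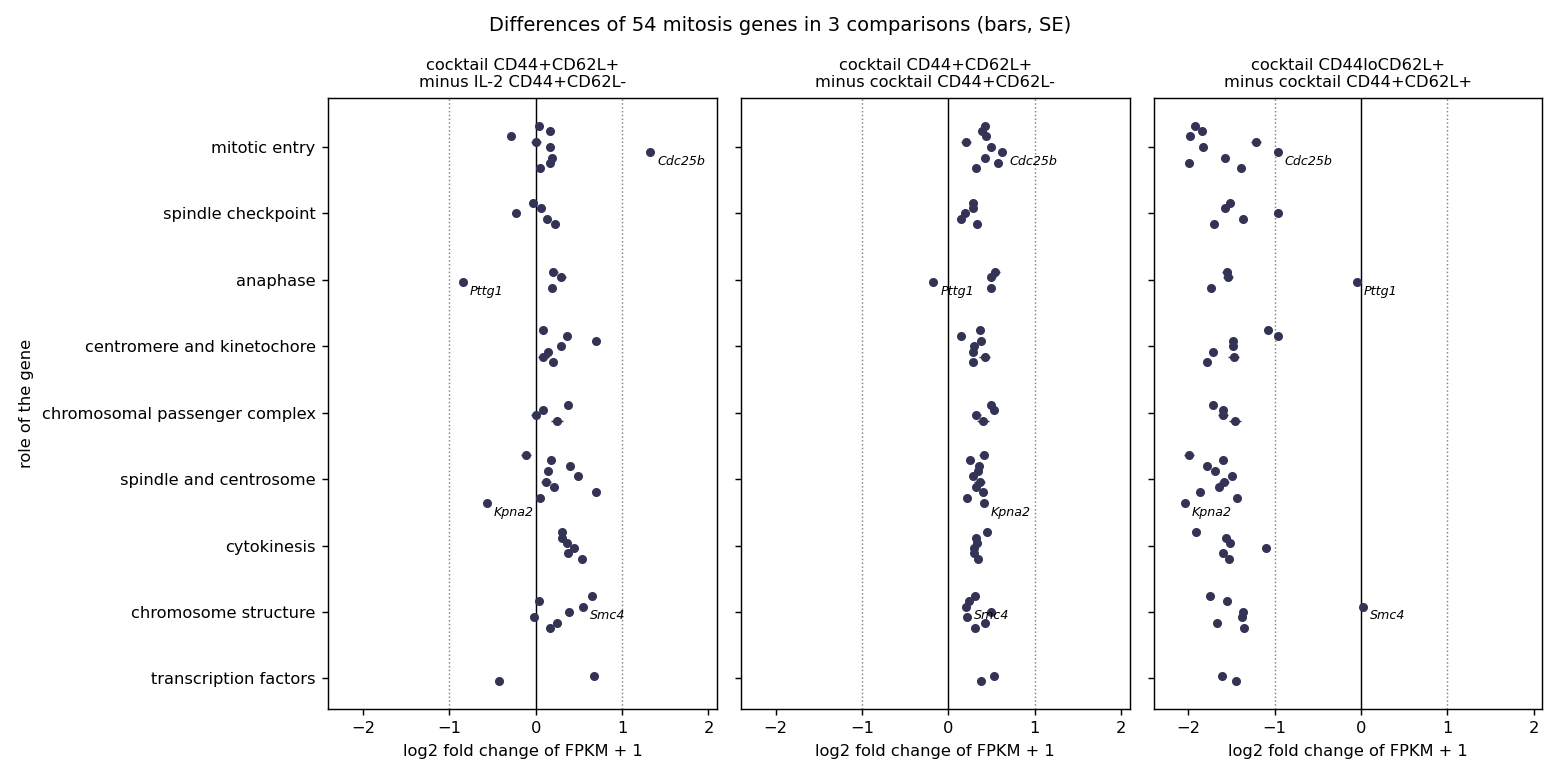
Log2 fold change of FPKM + 1 (horizontal axis) of each of the 54 mitosis genes, 1 point per gene with its SE as a bar, by role of the gene (vertical axis), for cocktail CD44+CD62L+ against IL-2 cells (left), the CD62L gate (middle) and the CD44 gate (right), with dotted lines at -1 and 1. The points of the CD62L gate lie between -0.17 and 0.63, and those of the CD44 gate lie between -2.04 and -0.96 except for Pttg1 and Smc4.

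Mitotic entry genes (9 members) had means from 5.10 FPKM (Cdc25c) to 65.6 FPKM (Ccnb2) in CD44loCD62L+ cells, and 8 of the 9 fell in the CD44 gate. In that gate 2.26% of all genes tested fell, the share that stands beside the count of each role. Plk1 (chromosome 7, 122159435 to 122169884 of GRCm38), the polo-like kinase of mitotic entry and spindle assembly, was at 1.37, 1.54 and 1.499 FPKM in the naive libraries and 76.4, 77.6 and 76.1 FPKM in the IL-2 libraries. Cocktail cells had 58.6, 56.5 and 57.7 FPKM (CD44+CD62L-), 87.1, 86.9 and 85.4 FPKM (CD44+CD62L+) and 20.8, 20.6 and 21.6 FPKM (CD44loCD62L+). No populations overlapped, and of the cultured cells the CD44lo libraries were lowest (log2 fold change against CD44+CD62L+ -1.99 ± 0.0251, SE, limma adjusted p = 1.11e-15). Cdk1, the kinase that drives mitosis, was at 0.392, 0.540 and 0.363 FPKM in naive, 60.5, 60.5 and 60.9 in IL-2, 45.8, 45.7 and 46.3 in cocktail CD44+CD62L-, 62.4, 60.9 and 63.3 in cocktail CD44+CD62L+ and 15.6, 15.9 and 15.6 in cocktail CD44loCD62L+ libraries. The difference between its IL-2 and cocktail CD44+CD62L+ libraries did not pass the test (0.04 ± 0.0345, SE, limma adjusted p = 0.329), and its CD44 gate fold change was -1.92 ± 0.0345 (SE).

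Ccnb1, encoding cyclin B1, the partner of CDK1, was at 0.477, 0.388 and 0.342 FPKM in the naive libraries and 108, 108 and 107 FPKM in the IL-2 libraries. The cocktail libraries held 64.0, 65.0 and 66.4 FPKM (CD44+CD62L-), 87.0, 89.2 and 88.2 FPKM (CD44+CD62L+) and 21.7, 21.5 and 21.5 FPKM (CD44loCD62L+). It was highest in IL-2 cells, with log2 fold changes against them of -0.72 ± 0.0272 in cocktail CD44+CD62L- and -0.28 ± 0.0272 in CD44+CD62L+ cells (SE). Ccnb2, its closest relative in the list, had overlapping libraries in IL-2 and cocktail CD44+CD62L+ cells, at 153 ± 2.69 and 153 ± 2.74 FPKM (limma adjusted p = 0.994). Ccnb1-ps, Gm12856, Gm7483 and Gm8416 share at least 95% of letters over 300 bases or more with Ccnb1, so its value may hold their reads. In the CD44 gate Ccnb1 fell by 1.98 on the log2 scale, beside the values of -1.99 for Plk1 and -1.92 for Cdk1. Cyclin A2 (Ccna2) and cyclin F (Ccnf) fell by 1.84 and 1.83, and Cdca3, which acts in the destruction of the kinase Wee1, by 1.39.

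Cdc25b (chromosome 2, 131186436 to 131198511), a phosphatase that activates CDK1, was at 33.3, 34.0 and 32.9 FPKM in the naive libraries and 48.0, 48.8 and 48.9 FPKM in the IL-2 libraries. In the cocktail cells it stood at 80.3, 79.7 and 78.9 FPKM (CD44+CD62L-), 123, 124 and 123 FPKM (CD44+CD62L+) and 62.1, 63.6 and 62.5 FPKM (CD44loCD62L+). It was the only member risen in cocktail CD44+CD62L+ against IL-2 cells (log2 fold change 1.33 ± 0.0137, SE, limma adjusted p = 3.30e-17), and the 2 groups of libraries lay far apart. Its naive and IL-2 means were nearer to each other, 33.4 ± 0.582 and 48.6 ± 0.480 FPKM (SD, n = 3), with a log2 fold change of 0.53. The related phosphatase gene Cdc25c was near 0 in naive cells, with 0.112 ± 0.0115 FPKM in naive, 14.9 ± 0.814 in IL-2 and 17.1 ± 0.591 in cocktail CD44+CD62L+ cells. Exons of Cdc25b overlap those of Spef1 on the opposite strand, and whether strand was used in counting is not given in the sources used here.

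Of 5 spindle checkpoint members 4 fell in the CD44 gate. Bub1b, encoding the checkpoint kinase BUBR1, was at 0.431, 0.512 and 0.576 FPKM in naive, 54.9, 54.1 and 55.8 in IL-2, 46.8, 46.9 and 46.4 in cocktail CD44+CD62L-, 57.3, 56.8 and 57.5 in cocktail CD44+CD62L+ and 18.8, 18.01 and 18.6 in cocktail CD44loCD62L+ libraries. The difference between its IL-2 and cocktail CD44+CD62L+ libraries did not pass the test (0.06 ± 0.0285, SE, limma adjusted p = 0.0792), and the CD44lo libraries were far below both (-1.58 ± 0.0285, SE). Bub1 and Ttk (MPS1), kinases of the checkpoint, fell by 1.52 and 1.70, and Mad2l1, encoding the APC/C inhibitor MAD2, by 1.36. Bub3, a partner of BUB1 and BUBR1 that is named because it was not called, was at 47.8 ± 0.541 FPKM in naive and 46.3 ± 0.720 FPKM in CD44loCD62L+ cells, so those populations were nearly level (-0.04 ± 0.0126, SE). In IL-2 cells Bub3 reached 106 ± 0.763 FPKM.

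Of 4 anaphase genes 3 fell in the CD44 gate, and securin did not. Cdc20, the activator of the APC/C, was at 2.73, 3.59 and 3.05 FPKM in naive, 105, 100.5 and 103 in IL-2, 82.3, 80.6 and 81.1 in cocktail CD44+CD62L-, 118, 119 and 119.7 in cocktail CD44+CD62L+ and 39.5, 39.8 and 40.4 in cocktail CD44loCD62L+ libraries. All populations were apart in Cdc20, with the CD44+CD62L+ libraries highest, and its CD44 gate fold change was -1.55 ± 0.0519 (SE). Ube2c, the ubiquitin-conjugating enzyme of the APC/C, fell by 1.54, from 242 ± 1.08 to 82.6 ± 2.77 FPKM, and Espl1, encoding separase, by 1.74.

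Pttg1 (chromosome 11, 43420244 to 43427463), encoding securin, the inhibitor of separase, was at 40.9, 39.4 and 36.7 FPKM in the naive libraries and 70.5, 70.2 and 71.8 FPKM in the IL-2 libraries. Cocktail cells had 43.5, 43.9 and 45.2 FPKM (CD44+CD62L-), 39.4, 39.1 and 38.6 FPKM (CD44+CD62L+) and 35.5, 39.4 and 38.3 FPKM (CD44loCD62L+). The IL-2 libraries were above all others, while the naive, CD44+CD62L+ and CD44loCD62L+ libraries overlapped. Against IL-2 cells the log2 fold change was -0.67 ± 0.0382 in cocktail CD44+CD62L- and -0.84 ± 0.0382 in CD44+CD62L+ cells (SE), short of the minimum fold. The difference between CD44+CD62L+ and naive cells did not pass the test (0.00 ± 0.0382, SE, limma adjusted p = 0.935), where the other 3 anaphase genes had risen. The RefSeq promoter at hand for Pttg1 lies inside the span of the gene and is not shown. The same holds for other members, among them Mybl2, Kif2c, Cdca3, Cdc25b and Ncapd2. Such a window may not be the main promoter, but all were counted in the promoter figures.

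**Figure D3:**
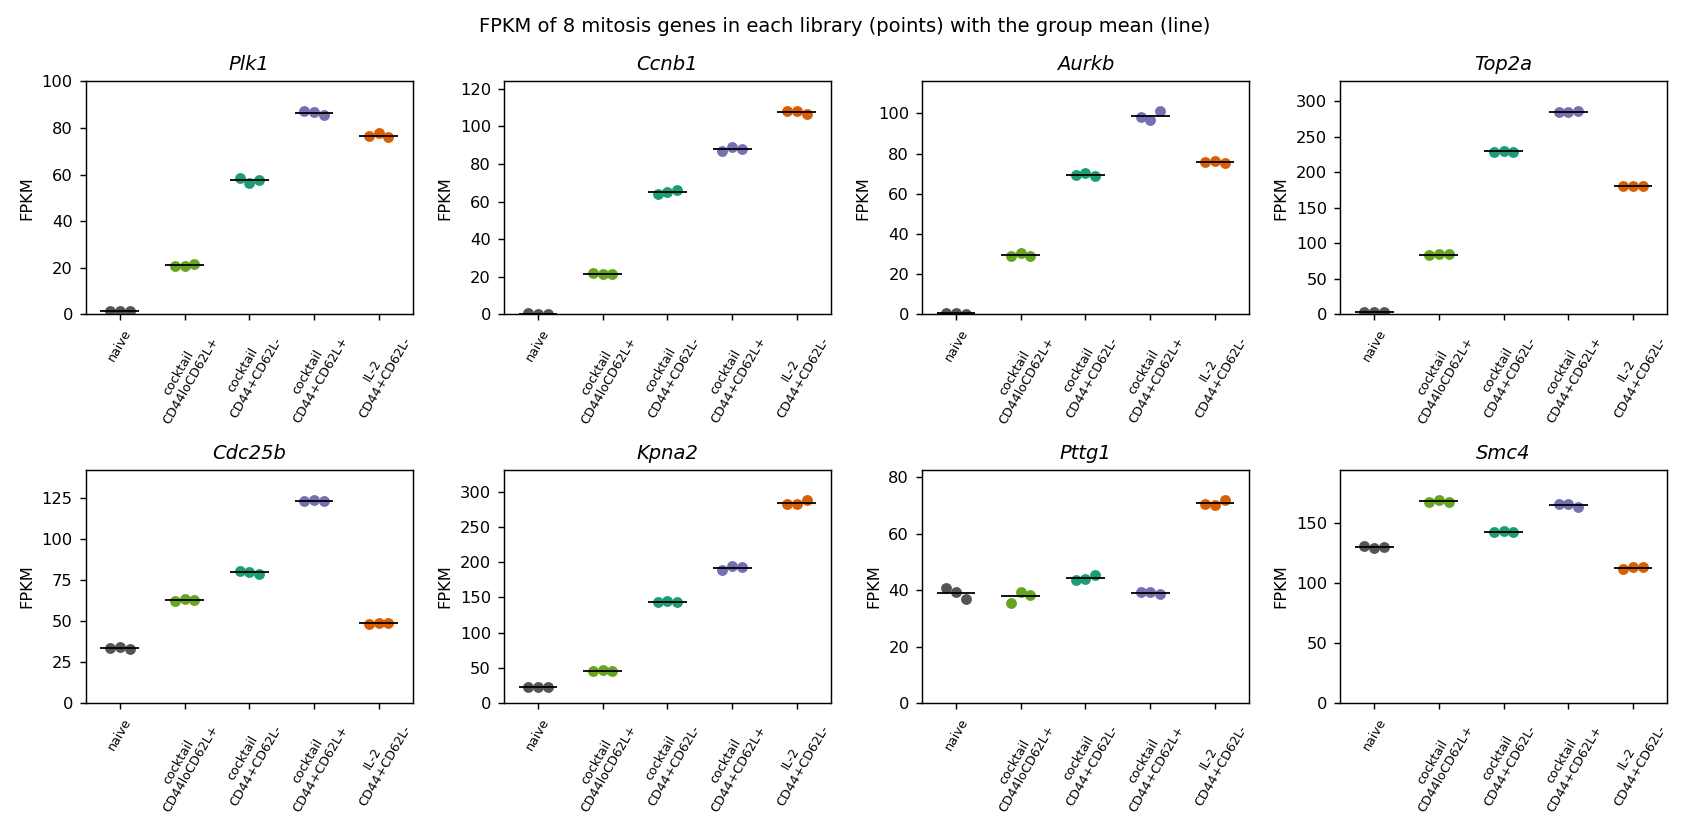
FPKM (vertical axis, from 0) of 8 mitosis genes in each of the 3 libraries of the 5 populations, with points for libraries and lines for population means. Plk1, Aurkb and Top2a are highest in cocktail CD44+CD62L+ cells and Ccnb1 and Kpna2 in IL-2 cells, while Pttg1 is highest in IL-2 cells and Smc4 lies between 112 and 169 FPKM in all libraries.

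Of the 7 centromere and kinetochore genes 6 fell in the CD44 gate. Cenpa, the histone H3 variant that marks centromeres, was at 11.8, 11.01 and 12.05 FPKM in naive, 147, 145 and 142 in IL-2, 119.8, 117 and 118 in cocktail CD44+CD62L-, 152, 152 and 155 in cocktail CD44+CD62L+ and 72.7, 72.0 and 71.7 in cocktail CD44loCD62L+ libraries. The CD44lo libraries stood at 0.471 of the CD44+CD62L+ mean (log2 fold change -1.08 ± 0.0248, SE). Cenpf, a large kinetochore protein, was at 0.0794, 0.141 and 0.132 FPKM in naive, 12.6, 12.8 and 12.9 in IL-2, 16.1, 16.3 and 16.3 in cocktail CD44+CD62L-, 21.1, 21.5 and 21.6 in cocktail CD44+CD62L+ and 7.14, 7.08 and 6.92 in cocktail CD44loCD62L+ libraries. After Cdc25b, it had the highest log2 fold change against IL-2 cells among the members (0.70 ± 0.0232, SE, limma adjusted p = 4.12e-12), although it was not called. Cenpe, a kinetochore motor, was at 0.497, 0.399 and 0.375 FPKM in naive, 26.3, 27.2 and 26.7 in IL-2, 31.2, 31.2 and 31.0 in cocktail CD44+CD62L-, 34.0, 34.6 and 35.0 in cocktail CD44+CD62L+ and 17.6, 17.1 and 17.3 in cocktail CD44loCD62L+ libraries. Its libraries were also highest in CD44+CD62L+ cells, and the CD44lo mean was 0.501 of theirs (-0.96 ± 0.0271, SE). The 4 subunits of the NDC80 complex, which attaches kinetochores to microtubules, fell by 1.48 (Ndc80), 1.71 (Nuf2), 1.48 (Spc24) and 1.78 (Spc25). In CD44+CD62L+ cells these 4 subunits had similar levels, from 42.1 ± 0.718 FPKM (Spc24) to 51.4 ± 0.310 FPKM (Ndc80), values that are per length.

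All 4 genes of the chromosomal passenger complex, which corrects faulty attachments and acts in cytokinesis, fell in the CD44 gate, by 1.46 to 1.71. Aurkb, its kinase, was at 0.495, 0.468 and 0.354 FPKM in naive, 75.6, 76.2 and 75.4 in IL-2, 69.2, 70.1 and 68.8 in cocktail CD44+CD62L-, 98.0, 96.6 and 101 in cocktail CD44+CD62L+ and 28.8, 30.3 and 29.0 in cocktail CD44loCD62L+ libraries. The CD44+CD62L+ libraries were above those of IL-2 (0.37 ± 0.0316, SE) and the CD44+CD62L- libraries below them (-0.12 ± 0.0316, SE). Birc5, encoding survivin, had overlapping libraries in IL-2 and CD44+CD62L+ cells (250.5 ± 4.41 and 250.3 ± 4.41 FPKM, limma adjusted p = 0.993). Incenp, the scaffold, was at 7.91 ± 0.452 FPKM in naive cells, the highest naive level of the 4, and Cdca8, encoding borealin, was at 2.08 ± 0.435 FPKM there.

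All 10 spindle and centrosome genes fell in the CD44 gate. The motor genes Kif11, Kif2c, Kif4 and Kif22 fell by 1.78, 1.69, 1.49 and 1.58. Aurka, the centrosome kinase, and its activator Tpx2 fell by 1.99 and 1.59, Plk4, the kinase of centriole duplication, by 1.43, and Hmmr, a microtubule-binding protein, by 1.64. Nusap1, a spindle protein, was higher in cocktail CD44+CD62L+ than in IL-2 cells by 0.69 ± 0.0419 (SE), at 92.9 ± 0.473 and 57.0 ± 0.222 FPKM. Kpna2, an importin that binds spindle assembly factors such as TPX2, was at 22.2, 22.4 and 22.4 FPKM in the naive libraries and 283, 283 and 288 FPKM in the IL-2 libraries. The cocktail libraries held 144, 145 and 144 FPKM (CD44+CD62L-), 189, 194 and 193 FPKM (CD44+CD62L+) and 45.3, 47.1 and 45.4 FPKM (CD44loCD62L+). It had the lowest log2 fold change of the members in the CD44 gate (-2.04 ± 0.0157, SE, limma adjusted p = 2.62e-17) and was above all cocktail cells in IL-2. Gm10184 and Gm10259 are copies with at least 99.8% of the same letters, and 4 more share at least 95%, so the reads of Kpna2 cannot be separated from theirs with certainty.

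All 6 cytokinesis genes fell in the CD44 gate, and all 6 were higher in cocktail CD44+CD62L+ than in IL-2 cells with no fold minimum, by 0.30 to 0.54. By that rule 41.8% of all genes tested were higher and 42.3% lower, and none of the 6 reached the minimum fold. Prc1, which bundles the microtubules of the central spindle, was at 57.5 ± 0.444 FPKM in IL-2, 71.1 ± 1.10 in CD44+CD62L+ and 18.3 ± 0.660 in CD44loCD62L+ cells. Kif23 and Racgap1, the subunits of centralspindlin, had naive means of 7.25 ± 0.237 and 45.7 ± 0.259 FPKM, and Ect2, the exchange factor that centralspindlin recruits, of 0.993 ± 0.0513 FPKM. Kif20a, a motor of the central spindle, fell by 1.57 in the CD44 gate. The log2 fold changes of Racgap1 and Ect2 in cocktail CD44+CD62L+ against naive cells were 1.48 and 3.80. Anln, encoding the ring protein anillin, had the lowest mean of the members in each cultured population, with 9.08 ± 0.314 FPKM in IL-2 and 4.09 ± 0.127 FPKM in CD44loCD62L+ cells.

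Of 7 chromosome structure genes 6 fell in the CD44 gate. Top2a, the topoisomerase that untangles sister chromatids, was at 2.92, 3.38 and 3.40 FPKM in the naive libraries and 180.1, 180.3 and 181 FPKM in the IL-2 libraries. In the cocktail cells it stood at 229, 231 and 229 FPKM (CD44+CD62L-), 285, 284 and 286 FPKM (CD44+CD62L+) and 83.4, 84.5 and 84.4 FPKM (CD44loCD62L+). It was higher than in IL-2 cells, with no overlap of libraries, by 0.66 ± 0.0321 in CD44+CD62L+ and 0.35 ± 0.0321 in CD44+CD62L- cells (SE). Mki67, the Ki-67 proliferation marker that coats mitotic chromosomes, was at 1.27, 1.26 and 1.20 FPKM in naive, 123, 124 and 122 in IL-2, 110.1, 113 and 110.2 in cocktail CD44+CD62L-, 137, 137 and 138 in cocktail CD44+CD62L+ and 53.3, 53.4 and 53.0 in cocktail CD44loCD62L+ libraries. The CD44lo mean of Mki67 was 0.387 of the CD44+CD62L+ mean (log2 fold change -1.35 ± 0.0140, SE) and its log2 fold change against naive cells was 4.60. The non-SMC subunits of condensin, which compacts chromosomes, fell by 1.36 (Ncapd2), 1.38 (Ncapg) and 1.66 (Ncaph), and its subunit gene Smc2 fell by 1.55.

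Smc4 (chromosome 3, 69004738 to 69034623), the partner of Smc2 in condensin, was at 131, 129 and 129.96 FPKM in the naive libraries and 112, 113 and 113 FPKM in the IL-2 libraries. Cocktail cells had 142, 143 and 142 FPKM (CD44+CD62L-), 165, 166 and 163 FPKM (CD44+CD62L+) and 167, 169 and 167 FPKM (CD44loCD62L+). Naive cells held more of it than IL-2 cells (-0.20 ± 0.00913 for IL-2 against naive, SE), and the CD44lo libraries were slightly above the CD44+CD62L+ libraries. Smc2 had 8.04 ± 0.121 FPKM in naive cells and 52.4 ± 0.771 in IL-2 cells, where Smc4 had more in naive than in IL-2 cells. Both genes also serve condensin II, which is nuclear throughout the cell cycle.

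The transcription factors fell together in the CD44 gate but differed between the cultures. Foxm1, an activator of late cell cycle genes, was at 1.79, 1.64 and 1.86 FPKM in naive, 31.5, 32.3 and 32.1 in IL-2, 35.8, 34.7 and 35.6 in cocktail CD44+CD62L-, 51.7, 51.3 and 51.2 in cocktail CD44+CD62L+ and 16.1, 16.0 and 16.5 in cocktail CD44loCD62L+ libraries. Mybl2, encoding B-MYB, was at 0.804, 1.12 and 1.00 FPKM in naive, 32.5, 32.9 and 31.5 in IL-2, 18.2, 18.04 and 18.3 in cocktail CD44+CD62L-, 24.2, 23.5 and 23.8 in cocktail CD44+CD62L+ and 8.36, 7.95 and 7.96 in cocktail CD44loCD62L+ libraries. Against IL-2 cells, Foxm1 was higher in cocktail CD44+CD62L+ cells (0.67 ± 0.0254, SE, limma adjusted p = 1.81e-11) and Mybl2 lower (-0.42 ± 0.0447, SE, limma adjusted p = 1.01e-06), each short of the minimum fold and with no overlap of libraries. In the CD44 gate their log2 fold changes were -1.60 ± 0.0254 and -1.45 ± 0.0447 (SE). Gm3320 is a copy of part of Mybl2 with 99.7% of the same letters, so reads may be shared. Mad2l1, Plk4, Racgap1 and Ube2c also have processed copies, and exons of Ccna2, Cdc20, Cdc25c, Ube2c, Prc1, Nusap1, Cdca8, Kif20a, Kif4, Kif22, Ncapg and Plk1 overlap a gene on the opposite strand. Exons overlap on the same strand in Foxm1 (Tex52 and Gm44596), Ncapd2 (Scarna10 and Gm28967), Top2a (Gm23451) and Ccnf (Mir5134), and all these values are uncertain to that extent.

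Other genes of the same pathways were read for comparison. Of 72 further mitosis genes, 61 fell and 0 rose in the CD44 gate, with a median log2 fold change of -1.47. Of all genes tested 2.26% fell and 0.418% rose in that gate. Tuba1c, a tubulin gene, and Fam83d, a spindle gene, had the lowest fold changes among them (-1.83 and -1.81). Psrc1, a spindle gene, was not called in the CD44 gate (-0.35) and was the only one of the 72 that rose in CD44+CD62L+ against IL-2 cells, at 38.0 ± 0.679 and 15.8 ± 0.128 FPKM. In that comparison 4.67% of all genes tested rose. The centromere gene Cenpq was between 16.8 and 24.1 FPKM in all 5 populations. Of 40 DNA replication genes, 21 fell and 0 rose in the CD44 gate, with a median of -1.02, and Rrm2, a subunit of ribonucleotide reductase, had the lowest fold change (-1.52), followed by Mcm10 (-1.42). Mcm4 and Gins4, of the replicative helicase, had -0.57 and -0.54.

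Replication genes were also set beside the mitosis genes in the comparison with IL-2 cells. In cocktail CD44+CD62L+ cells 2 replication genes were higher and 35 lower with no fold minimum (median -0.32), where 38 mitosis genes were higher and 5 lower. Of all genes tested 41.8% were higher and 42.3% lower by that rule. Ccne1, encoding cyclin E1, is named because it alone fell in the replication list, where 3.49% of all genes tested fell. It was at 31.2 ± 1.26 FPKM in CD44+CD62L+ and 68.2 ± 1.26 FPKM in IL-2 cells (-1.11 ± 0.0289, SE). In each library, the mean log2(FPKM + 1) of the 54 mitosis genes minus that of the 40 replication genes was -0.05 in all 3 IL-2 libraries, 0.26 in all 3 cocktail CD44+CD62L- libraries and 0.46, 0.47 and 0.47 in the CD44+CD62L+ libraries. It was -0.03, -0.04 and -0.03 in the CD44loCD62L+ and -1.21, -1.16 and -1.21 in the naive libraries. The IL-2 and CD44loCD62L+ libraries lay close together in this difference, which is a description with no test.

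**Figure D4:**
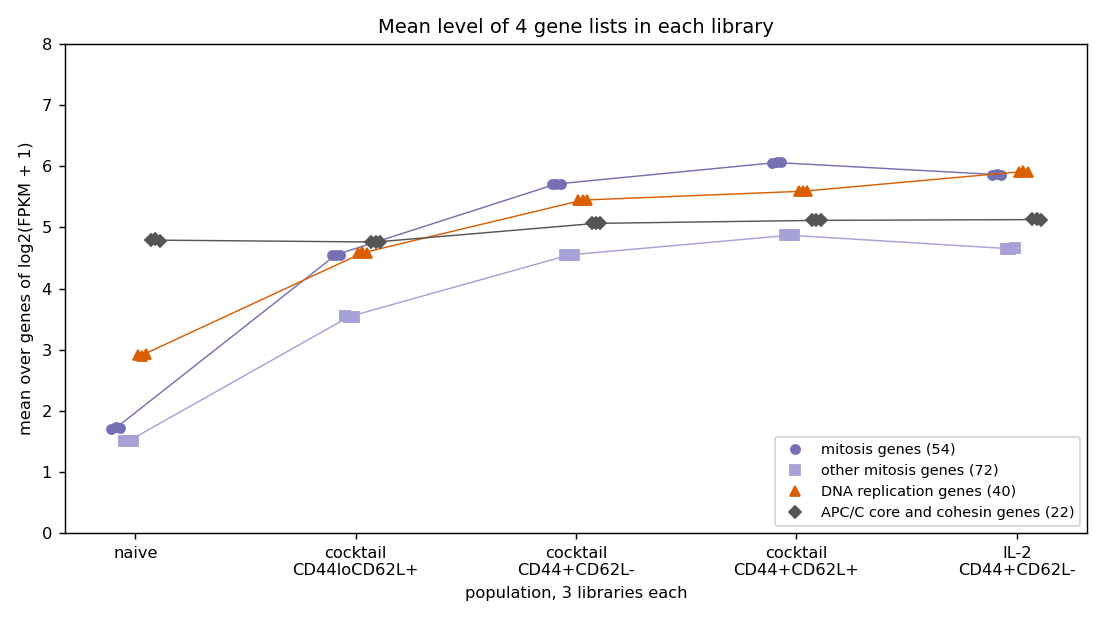
Mean log2(FPKM + 1) over the genes of 4 lists (vertical axis) in each of the 3 libraries of the 5 populations (horizontal axis), with lines through the population means. The 54 mitosis genes run from 1.70 in a naive library to 6.06 in CD44+CD62L+ libraries, the 40 replication genes lie above them in naive cells and below them in cocktail CD44+ cells, and the 22 APC/C core and cohesin genes stay between 4.76 and 5.13.

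Of all genes tested 2.26% fell in the CD44 gate. The 22 APC/C core and cohesin genes, which act in mitosis but are made throughout the cell cycle, had a median of -0.26 in it, with 1 fallen. That was Fzr1, encoding CDH1, the APC/C activator of late mitosis and G1, at 62.0 ± 0.961 FPKM in CD44+CD62L+ and 26.0 ± 0.8999 FPKM in CD44loCD62L+ cells. The cohesin gene Rad21 was at -0.89, and Nipbl and Cdc26 were the highest of that list, at 0.16 and 0.07. A list of 21 E2F, RB family and MuvB genes also held the CDK inhibitor genes Cdkn2c and Cdkn1b. Of these 21 genes 3 fell in the CD44 gate (E2f8, Cdkn2c and E2f7), with a median of -0.56. E2f8, a repressor of E2F targets, was at 28.7 ± 0.293 and 9.45 ± 0.242 FPKM, and Cdkn2c, an inhibitor of CDK4 and CDK6, at 45.7 ± 1.19 and 18.5 ± 0.918 FPKM. Cdkn1b, encoding the CDK inhibitor p27, ran the other way without reaching the minimum fold, with 74.9 ± 0.700 FPKM in naive, 24.3 ± 0.532 in IL-2, 46.1 ± 1.12 in CD44+CD62L+ and 65.7 ± 1.18 in CD44loCD62L+ cells (0.50 ± 0.0203 in the CD44 gate, SE). Lin37, a MuvB subunit, was at 0.15.

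The promoter letters were set beside the difference in the CD44 gate, where 2.26% of all genes tested fell. The 35 members with TTTGAA or TTCGAA had a median log2 fold change of -1.55, and 33 fell. The 10 members without them (Birc5, Ccnb1, Cenpe, Mad2l1, Mybl2, Ncaph, Nuf2, Nusap1, Plk4 and Pttg1) had a median of -1.52, and 8 fell. Of these 10, all but Ccnb1 and Cenpe also had no CCAAT box in the window. These values were not tested against each other, and a missing match says only that these letters are not in this window, not that the gene has no CHR.

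The members' profiles over the 15 libraries were nearly alike. Each member's log2(FPKM + 1) was standardized, and the mean profile served as the reference. Pearson's r with it, over the 15 libraries that fall into 5 populations, was over 0.95 in 48 of the 54 members, of which the reference is made. The lowest values were 0.145 in Smc4, 0.403 in Pttg1, 0.770 in Cdc25b and 0.801 in Bub3. Among 9212 other genes that reached a population mean of 5 FPKM, the 10 most like the reference were 4930547N16Rik, Arhgap11a, Pole, Kif18b, Kntc1, Ckap2, Cdca5, Atad5, Prr11 and Dlgap5, with r from 0.9997 to 0.9988. Of these, Arhgap11a, Kif18b, Ckap2, Cdca5 and Dlgap5 were on the list of further mitosis genes and Pole on that of replication genes. The closest, 4930547N16Rik, was at 0.111, 0.0997 and 0.121 FPKM in naive, 15.6, 15.9 and 15.5 FPKM in CD44+CD62L+ and 4.84, 4.90 and 4.84 FPKM in CD44loCD62L+ libraries. These correlations describe 5 populations and carry no test.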

How the data were processed

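Values were the FPKM that the authors deposited, 1 column per library, for 15 libraries of 5 populations. The submitters' processing notes name TopHat2 2.0.9, Cuffdiff 2.1.1 and mm10, and no label gives the annotation, the settings or the use of strand. Depth is unknown: among 32359 ratios of low genes between libraries, 10.1% were whole within 0.05, beside 10% by chance, and reads could not be recovered. Of 23284 entries 6039 were at 0 in every library, Eef1a1 among them, so a 0 can be a failed estimate.

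Columns were assigned by the labels. The main test was limma 3.58.1 (under R 4.3.3; eBayes with a variance trend) on log2(FPKM + 1), with all 15 libraries and a term for population alone, over 11242 genes with a population mean of at least 1 FPKM. There were 8 comparisons, with p adjusted by Benjamini-Hochberg over all genes of each. A call needed an adjusted p under 0.05 and a log2 fold change past 1 in size; counts with no fold minimum stand beside it. An exact two-sided permutation test of 3 against 3 libraries cannot go below 0.1. The fit was tested on simulated data. The members and lists were chosen with earlier results of these data known. Libraries' values were printed for 17 members: 11 chosen by role, and those highest or lowest in, or against the direction of, 3 comparisons; further lists gave their 2 lowest and 2 highest members at 5 FPKM or more.

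Gene spans came from RefSeq, as did the promoters (GRCm38.p6, the assembly that mm10 names). Exon overlaps and copies (at least 300 bases and 95% identity) came from GENCODE M21. Same-numbered libraries did not deviate together, so no replicate block was used. Figures used matplotlib 3.10.9 in Python 3.11.15.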

Additional observations from a re-analysis of the deposited data

How the results depend on the processing

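The direction of the median and the count of mitosis genes called stayed within 1.5 times in each of the 8 comparisons with a pseudocount of 0.1 or 5 FPKM, no filter or a filter of 5 FPKM, median-ratio scaling, quantile normalization, the compared libraries only, no variance trend and each library left out. The counts depend on the fold minimum where differences are small. With none, 47 members passed in cocktail CD44+CD62L- against IL-2 cells, 43 in CD44+CD62L+ against IL-2 cells and 54 in the CD62L gate. Of all genes tested 84.3%, 84.1% and 48.3% passed with none, so 47 and 43 of 54 members lie near that background. With a minimum of about 1.5-fold the member counts were 5, 6 and 1, where the main counts were 0, 1 and 0. By that minimum 21.9%, 22.4% and 0.632% of all genes passed, so 5 and 6 of 54 members lie below that background. Leaving out libraries gave 47 to 48 in CD44loCD62L+ against naive cells and the main count elsewhere. With the replicate number as a block the counts were 0, 1, 0 and 49 within and between the cultures and 51, 51, 51 and 48 against naive cells; the numbers do not pair the libraries (correlations of same-numbered libraries from -0.24 to 0.18, median -0.01).

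With the fold minimum kept at 1 on the log2 scale, 4742 of 4752 values of single members stayed on their side of the call (called or not called), 9 lost a call, 1 gained one (Kif23 in CD44loCD62L+ against naive cells, pseudocount 0.1 FPKM) and none reversed. With a pseudocount of 5 FPKM the calls of Cdc25c, Kpna2, Anln, Plk4 and Smc2 in CD44loCD62L+ and of Racgap1 in IL-2 against naive cells were lost. A larger pseudocount by itself makes a log2 fold change smaller in size. Quantile normalization moved the median of all genes by -0.10 and -0.11 in the CD44+CD62L- and CD44+CD62L+ cocktail cells against naive cells, and turned the sign of Smc4 in the former and of Pttg1 in the latter and in the CD44 gate. Against IL-2 cells it turned that of 7 members in CD44+CD62L- and 3 in CD44+CD62L+ cells, named beside those results. Technical replicates, unknown depth and bulk RNA limit all values.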
